A study of Mus musculus with 15 samples.

Results

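CD8+ OT-I T lymphocytes that had spent 22 h with immunofilaments were compared with unstimulated cells from the start of the culture, across all genes. The members were the 3 libraries with immunofilaments at 22 h and the 3 unstimulated libraries at 0 h, 6 of the 15 libraries of the series. Spleen and lymph nodes of female OT-1 mice were the source of the cells, strain C57BL/6-Tg(TcraTcrb)1100Mjb/Crl, and every group carried this transgene, which gives the T cells a receptor for an ovalbumin peptide on the MHC class I molecule H-2Kb. The immunofilaments, labelled IF-pMHC(SIIT)/IL-2, carried peptide-MHC and IL-2 and were given at 5 ng/ml to 50000 T cells per well. The remaining 9 libraries held cells with immunofilaments at 8 h and cells with 20000 peptide-pulsed Flt-3Ligand dendritic cells per well at 8 h or 22 h, 3 libraries each. Viable CD8+ CD103- cells were sorted before RNA extraction, and RNA was sequenced with an adapted CEL-seq protocol. The labels number the samples of each group as donors 1 to 3 and do not say whether a number is 1 animal or a pool, so p-values measure the spread between these samples, which may be technical. Among the samples compared, no group was cultured for 22 h without a stimulus, so the stimulus and the time in culture cannot be told apart, and neither can peptide-MHC and IL-2.

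Immunofilaments are artificial antigen-presenting scaffolds, semiflexible polymers that display signals a T cell otherwise meets on a dendritic cell. Engagement of the T cell receptor opens calcium channels and starts the NFAT, NF-kB and MAP kinase pathways, which induce transcription factors within minutes and receptors, chemokines and cell cycle genes over hours. IL-2 binds a receptor whose alpha chain, CD25, is itself induced by activation, and signals through STAT5. Naive CD8+ T cells leave quiescence in this process, enlarge, copy their DNA and later divide.

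Library depth was 4957658 to 7958411 counts in the unstimulated samples and 7991069 to 19806730 counts in the immunofilament samples at 22 h. The mitochondrial ribosomal RNAs mt-Rnr1 and mt-Rnr2 took 3.17% of counts in immunofilament replicate 1 (95% Wilson interval 3.16 to 3.18), against 0.179% (0.176 to 0.182) in replicate 2 and 0.146% (0.145 to 0.148) in replicate 3. The 12 other libraries of the series held 1.83% to 4.49%. These intervals cover counting error only. Replicates 2 and 3 also shared 127 genes whose level was more than 2-fold below that of each of the 13 other libraries, among them Malat1, with levels of 58.3 and 60.5 CPM (counts scaled to the TMM-adjusted library size) beside 629 in replicate 1. Only 1 gene stood more than 2-fold above all other libraries in both. The T cell marker genes Cd3d, Cd3e, Cd3g, Cd247, Cd8a, Cd8b1, Cd2, Thy1 and Lck were detected in all 6 libraries, while Cd4 had 0 counts in the unstimulated and 29 counts in the immunofilament libraries in total.

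Of 10831 genes tested, 658 (6.08%) differed between the groups at an adjusted p under 0.05 by edgeR's quasi-likelihood test, 285 higher (2.63%) and 373 lower (3.44%) at 22 h. The change was at least 2-fold for 444 of them. The groups did not overlap for 657 of the 658, and over all tested genes 30.4% did not overlap, 15.7% with the immunofilament libraries higher and 14.7% with them lower. Scaling by library size alone, in place of TMM, gave 621 higher and 217 lower genes, and moved the median log2 fold change of all tested genes from 0.01 to 0.22. The higher share of the calls was thus 74.1% with that scaling and 43.3% with TMM, so the balance of the directions depended on the scaling. Fold changes below are relative to TMM.

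Immunofilament replicate 1, whose mitochondrial ribosomal RNA was like that of the other 12 libraries, lay beyond the unstimulated range in the direction of the change for 657 of the 658 genes. Its difference was at least 0.5 times that of replicates 2 and 3 on the log2(CPM + 1) scale for 607. The exception was Fscn1, which encodes the actin-bundling protein fascin. Replicate 1 was in the fit that called the 658 genes, so a gene it went against would rarely have passed. Its agreement with the 658 was thus in part set by how they were selected. The genes called without replicate 1, given below, do not have this limit. Left as the only immunofilament library, replicate 1 gave the same direction for 658 of 658 genes and passed the test for 94 of them, with a lone library assumed to vary like the other groups. The number of calls moved with each library left out: 384, 327 and 332 genes without unstimulated replicate 1, 2 or 3, and 947, 340 and 283 without immunofilament replicate 1, 2 or 3. Of the 947 found without replicate 1, 943 were tested with all libraries, and replicate 1 lay outside the unstimulated range on the same side for 677 (71.8%). That share was 296 of 311 for higher genes, 381 of 632 for lower genes, and 27 of the 121 called genes that were low in replicates 2 and 3 alone. Replicates 2 and 3 thus gave many lower genes that replicate 1 did not show. The 658 held 8 of the 127. Of 144 genes examined by name, 129 passed the test, and 72 of these passed it with any 1 of the 6 libraries left out. The number of these 6 fits in which a named gene lost the call is given below as, for example, 3 of 6. Replicate 1 lay beyond the unstimulated range, in the direction of the change, for all of the 129 but Fscn1. The same limit holds here, as replicate 1 was in the fit that called them.

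**Figure D1:**
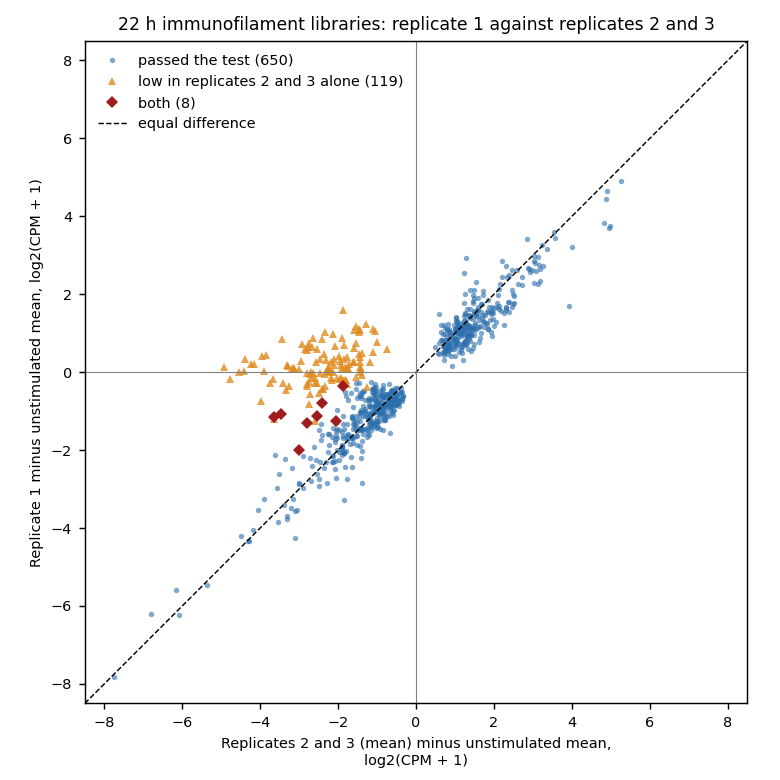
Each point is a gene, with its difference from the unstimulated mean in replicates 2 and 3 (x axis, log2(CPM + 1), mean of both) and in replicate 1 (y axis, same scale). Genes that passed the test (blue, 650) lie along the dashed line of equal difference in both directions, while 119 genes low in replicates 2 and 3 alone (orange) lie near a replicate 1 difference of 0, and 8 genes (dark red) belong to both sets. Both patterns follow in part from how the sets were chosen. The test used replicate 1, and the orange genes were taken as low against all other libraries, replicate 1 included.

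The activation receptors changed in both directions. Of 22 tested genes for costimulatory and cytokine receptors, 5 were higher and 4 lower, with a median log2 fold change of 0.63 beside 0.01 over all tested genes. The most increased was Tnfrsf9 (chr4:150914562-150946102), which encodes the costimulatory receptor 4-1BB. Its level was 4.99, 6.14 and 3.49 CPM in unstimulated replicates 1 to 3 and 123, 147 and 191 CPM with immunofilaments. Every immunofilament library was thus far above every unstimulated one (log2 fold change 4.96 ± 0.64 SE, adjusted p = 0.000177, edgeR). Il2ra, the CD25 chain that gives the IL-2 receptor its high affinity, had 1.17, 0.361 and 2.33 CPM unstimulated and 13.3, 17.4 and 18.5 CPM at 22 h (3.73 ± 0.96, adjusted p = 0.0295). Cd28, the receptor for B7 ligands, stood at 197, 148 and 211 CPM and at 498, 554 and 546 CPM, with little spread inside the stimulated group. Crtam, an adhesion receptor of activated CD8+ T cells, rose by 2.93 ± 0.53 on the log2 scale, and Cd27, a costimulatory TNF receptor, by 0.64 ± 0.17. The 4 lower receptors included Cd69, the early activation marker that retains T cells in lymphoid tissue. It stood at 229, 153 and 250 CPM in unstimulated cells and at 49.2, 52.7 and 60.7 CPM at 22 h, without overlap (-1.96 ± 0.29, adjusted p = 0.000575). Il4ra, the IL-4 receptor chain, fell by 1.15 on the log2 scale, Il2rg, the common gamma chain, by 0.69, and Il21r by 0.72. Replicate 1 was outside the unstimulated range for all 9. Il2ra and Cd27 lost the call in 5 of 6 omissions each and Il21r in 6 of 6, and the number of higher receptors was between 3 and 5 over these omissions. It was 8 with no filter on low counts or with library size scaling, and 9 with the 2 groups fitted alone.

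Inhibitory receptors, listed together with the ligand gene Cd200, were represented by 11 tested genes, of which 3 were higher and 0 lower by edgeR. Without unstimulated replicate 3, 1 was higher. With the 2 groups fitted alone, 9 were tested, 4 of them higher and 1 lower. At an unadjusted p under 0.05, 5 were higher and 1 lower, and DESeq2's Wald test gave 4 higher and 0 lower. Lag3, a receptor for MHC class II that restrains T cells, had 1.32, 0 and 0.698 CPM before and 9.4, 10.8 and 18.1 CPM at 22 h (4.17 ± 0.92, adjusted p = 0.0121). Replicate 1 was the lowest of the stimulated libraries and still above all unstimulated ones. Ctla4, which competes with CD28 for its ligands, rose from 3.39 ± 0.70 to 8.87 ± 1.23 CPM (SD, n = 3), and Cd200 from 1.82 ± 0.47 to 10.5 ± 3.13 CPM. Lag3 lost the call in 3 of 6 omissions, Cd200 in 2 of 6 and Ctla4 in none.

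**Figure D2:**
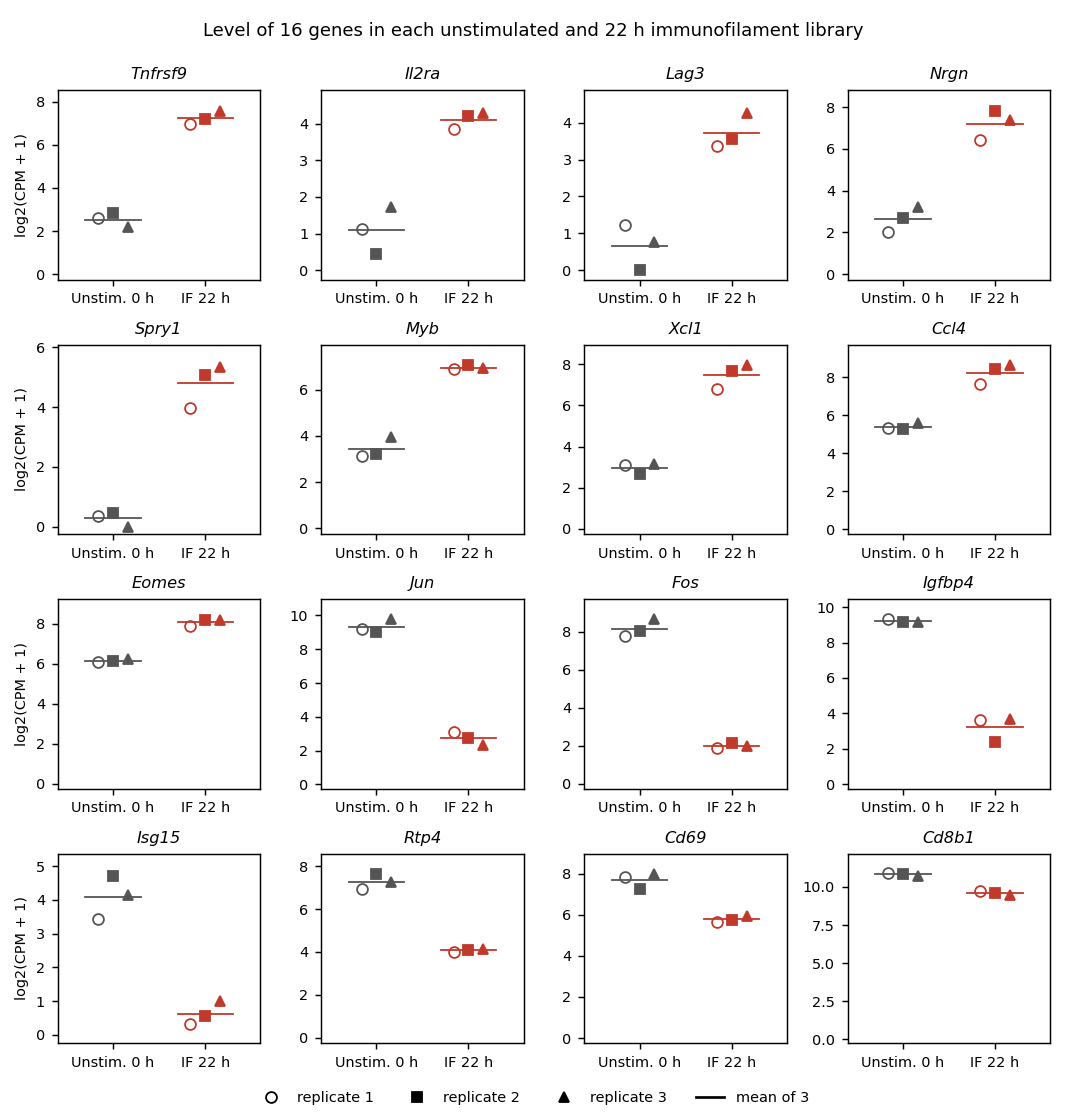
Level of 16 genes (log2(CPM + 1), y axis of each panel) in the 3 unstimulated libraries (grey) and the 3 immunofilament libraries at 22 h (red), with a symbol for each replicate and a line at the mean of 3. Replicate 1 (open circle) lies apart from the unstimulated libraries, on the side of replicates 2 and 3, in all 16 panels. The 16 genes were picked among those called with replicate 1 in the fit. For some, such as Nrgn, Spry1, Xcl1 and Ccl4, replicate 1 is closer to the unstimulated libraries than replicates 2 and 3 are.

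Among 29 tested genes of the T cell receptor complex and its proximal signalling, 7 fell and 1 rose, with a median of -0.37. The 9 CD8+ T cell markers of the files summed to 10890 to 11770 CPM in unstimulated libraries and to 6582 to 7661 CPM at 22 h, and 6 of them fell. The coreceptor gene Cd8b1 stood at 1901, 1868 and 1707 CPM unstimulated and at 872, 788 and 721 CPM at 22 h (-1.20 ± 0.16, adjusted p = 0.00029). Cd8a, its partner chain, fell from 963 ± 40.5 to 557 ± 22.1 CPM (SD, n = 3). The adhesion receptor Cd2, with 907, 1032 and 899 CPM before and 384, 476 and 415 CPM after, also fell without overlap. Other decreases were those of Thy1, a surface glycoprotein (-0.87 ± 0.12), Cd3e, a signalling chain of the receptor (-0.66 ± 0.18), and the kinase Lck (-0.47 ± 0.12). The gene that rose was Ptpn22, a phosphatase that dampens receptor signalling. Its values were 427, 380 and 366 CPM in unstimulated cells and 720, 793 and 727 CPM with immunofilaments. Replicate 1 was outside the unstimulated range for each of these genes. Lck and Cd3e lost the call in 5 of 6 omissions each, and the count of lower genes was 3 to 6 over the omissions, lowest without immunofilament replicate 3. With library size scaling 4 genes of the list were lower and 1 higher.

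Among 22 calcium and NFAT genes 3 were higher and 1 lower. With 1 library left out 2 or 3 were higher and 1 to 4 lower, 4 of them without immunofilament replicate 1. With no filter on low counts 3 were higher and 3 lower. Nrgn (chr9:37544492-37552904) encodes neurogranin, a small calcium signalling protein best known from neurons. Its level was 3.08, 5.42 and 8.38 CPM in the unstimulated libraries and 83.7, 228 and 168 CPM at 22 h. Replicate 1 had the lowest of the stimulated values and lay well above the unstimulated range (4.86 ± 0.61, adjusted p = 0.000139). The same gene stood at 2.32, 11.3 and 5.89 CPM with immunofilaments at 8 h and at 10.9, 19.2 and 4.02 CPM with dendritic cells at 22 h, so that all of these libraries were below all 3 immunofilament libraries at 22 h. The differences were 4.71 ± 0.62 against 8 h (adjusted p = 0.0043) and 3.82 ± 0.56 against dendritic cells (adjusted p = 0.0011). Nfatc1, an NFAT factor that is induced by activation, rose from 108 ± 14.99 to 259 ± 30.4 CPM (SD, n = 3), and Stim2, a sensor of calcium stores, from 25.6 ± 3.8 to 43.3 ± 3.79 CPM. Replicate 1 was outside the unstimulated range for both, and Stim2 lost the call in 3 of 6 omissions.

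Regulators that limit signalling were split, with 4 of 30 tested genes higher and 5 lower. Spry1 (chr3:37639947-37644598), an inhibitor of receptor kinase and MAP kinase signalling, had 0.294, 0.361 and 0 CPM unstimulated and 14.8, 32.6 and 40.1 CPM at 22 h. Its replicate 1 value was the lowest of the stimulated group (adjusted p = 0.000134, log2 fold change 6.85 ± 0.85 on counts near 0 in unstimulated cells). Rgs16, which shortens G protein signalling, had 1 count in all unstimulated libraries together and 31.1, 44.2 and 36.1 CPM with immunofilaments. The ratio of the counts pooled over each group's libraries, each divided by the pooled TMM-adjusted library size, was 612, with an exact counting interval of 109.7 to 24210. Cblb, a ubiquitin ligase that sets the threshold of activation, rose from 37.4 ± 2.89 to 121 ± 16.1 CPM (SD, n = 3), and Traf1, an adaptor of TNF receptors including 4-1BB, from 29.3 ± 4.99 to 61.7 ± 3.11 CPM. Tnfaip3, which encodes A20, an inhibitor of NF-kB, stood at 96.6, 103 and 165 CPM and at 15.7, 26.2 and 20.8 CPM, and Nfkbia, which encodes IkB-alpha, fell from 349 ± 48.1 to 142 ± 23.8 CPM. Rgs2 fell by 3.26 on the log2 scale, the MAP kinase phosphatase gene Dusp10 by 2.33 and Rgs1 by 1.46. All 9 had replicate 1 outside the unstimulated range, and Rgs1 alone of these lost the call, in 2 of 6 omissions.

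Among 25 tested transcription factors of activated T cells, 2 were higher and 1 lower, while 6 were higher with no filter on low counts, 7 with the 2 groups fitted alone and 5 with library size scaling. Eomes, a T-box factor of effector and memory CD8+ T cells, stood at 66.1, 68.5 and 73.5 CPM and at 240, 296 and 289 CPM, without overlap (1.99 ± 0.33, adjusted p = 0.00153). Pou2af1, a coactivator of octamer-binding factors, rose from 8.98 ± 4.25 to 71.0 ± 21.7 CPM (SD, n = 3). Runx3, which maintains the CD8+ lineage, had 91.7, 84.8 and 86.4 CPM before and 65.1, 34.7 and 25.3 CPM after, and replicate 1 was less reduced than replicates 2 and 3. Its log2 fold change was -1.08 ± 0.28 with all libraries and -0.43 with replicate 1 alone. The call for Runx3 was lost in 5 of 6 omissions. Irf4, a factor whose level follows receptor signal strength, stood at 10.3, 11.6 and 14.0 CPM and at 39.8, 52.1 and 61.2 CPM. The groups did not overlap, yet the test was not passed (2.11 ± 0.74, adjusted p = 0.108), except with no filter on low counts or with the 2 groups fitted alone (adjusted p = 3.27e-09 and 0.000549). Myc, the growth regulator, had 37.7, 33.8 and 40.3 CPM before and 34.2, 53.7 and 60.2 CPM at 22 h. Replicate 1 lay within the unstimulated range, and the test was not passed (adjusted p = 0.648).

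Other genes with a large increase did not belong to a list of T cell activation. Myb, a factor of progenitors and of self-renewing T cells, stood at 7.63, 8.31 and 14.7 CPM and at 116, 131 and 121 CPM, and replicate 1 was as high as the others (3.61 ± 0.31, adjusted p = 2.36e-06). Cnih2, which encodes a chaperone of glutamate receptors in neurons, rose from 0.35 ± 0.49 to 17.0 ± 5.52 CPM (SD, n = 3), and Utf1, a chromatin factor named for embryonic stem cells, from 0.85 ± 0.76 to 13.6 ± 2.93 CPM. Rasgef1a, an exchange factor for small GTPases, had 12.9, 7.29 and 9.6 CPM with immunofilaments and 0, 0 and 1.16 CPM without. Cables1, the adhesion molecule Alcam and the semaphorin Sema7a rose by 4.38 ± 0.91, 4.24 ± 1.04 and 4.10 ± 0.94 on the log2 scale, and lost the call in 2, 4 and 3 of 6 omissions. Vmp1, which encodes a membrane protein of autophagy, rose from 95.6 ± 16.6 to 289 ± 50.0 CPM. The exons of Vmp1 overlap the miRNA gene Mir21a on the same strand, so its counts may include the primary transcript of that miRNA.

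**Figure D3:**
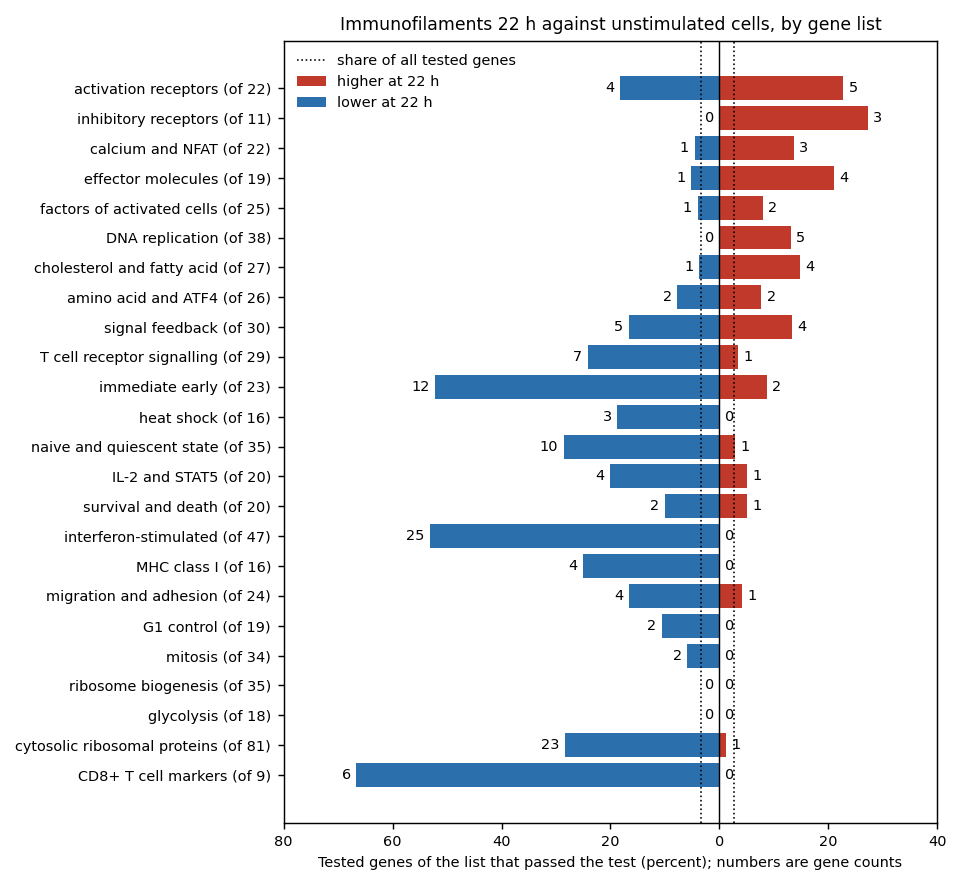
Share of the tested genes of the lists shown that were higher (red, to the right) or lower (blue, to the left) at 22 h with immunofilaments, in percent, with gene counts at the bar ends and dotted lines at the shares over all tested genes (2.63% higher, 3.44% lower). The interferon-stimulated, immediate early and CD8+ T cell marker lists reach furthest to the left of those shown, and none of them reaches as far to the right.

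Effector genes differed from each other. Of 19 tested genes, 4 were higher and 1 lower. The chemokine genes Xcl1 (chr1:164931644-164935527), which attracts cross-presenting dendritic cells, and Ccl4, a chemoattractant of immune cells, were among the 4. Xcl1 had 7.63, 5.42 and 7.91 CPM before and 110, 202 and 247 CPM at 22 h (4.74 ± 0.89, adjusted p = 0.00414). Ccl4 had 38.8, 38.0 and 47.2 CPM and 201, 338 and 398 CPM (2.92 ± 0.60, adjusted p = 0.00773). Replicate 1 was the lowest of the stimulated libraries for both chemokines and above all unstimulated ones. The serpins that protect cells from granule proteases rose together, Serpinb6b from 71.0 ± 4.76 to 173 ± 29.3 CPM and Serpinb9, the inhibitor of granzyme B, from 25.9 ± 2.85 to 58.1 ± 6.51 CPM (SD, n = 3). Gzma, a granzyme gene, fell from 237 ± 18.5 to 101 ± 5.97 CPM. Gzmb stood at 147, 73.0 and 108 CPM and at 31.1, 33.7 and 48.9 CPM, below the unstimulated range in every library but not past the test (-1.52 ± 0.53, adjusted p = 0.107), except with no filter on low counts or with the 2 groups fitted alone (adjusted p = 3.47e-07 and 0.00726). Perforin, Prf1, had 4.4, 1.27 and 5.12 CPM and 3.93, 3.7 and 3.93 CPM, with replicate 1 inside the unstimulated range. Ifng had 12.9, 10.3 and 23.7 CPM and 7.5, 7.77 and 14.2 CPM, with overlapping groups (adjusted p = 0.748). Serpinb9 lost the call in 5 of 6 omissions and Gzma in 6 of 6. With no filter on low counts 3 of the list were lower, and with the 2 groups fitted alone 4.

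The immediate early genes formed a strongly reduced group. Of 23 tested genes 12 fell and 2 rose, and the median log2 fold change was -1.07. Jun (chr4:95049034-95052222), a subunit of the AP-1 factor, stood at 592, 512 and 881 CPM in unstimulated cells and at 7.74, 5.74 and 4.03 CPM at 22 h (-6.85 ± 0.53, adjusted p = 6.36e-07). Fos, its partner, stood at 219, 257 and 400 CPM and at 2.74, 3.47 and 2.91 CPM. All 3 immunofilament libraries were thus low for both, replicate 1 included. Junb fell from 719 ± 81.5 to 67.1 ± 3.47 CPM (SD, n = 3), Fosb from 88.2 ± 45.7 to 3.16 ± 0.28 CPM, and Dusp1, which switches off MAP kinases, from 147 ± 51.1 to 7.08 ± 0.52 CPM. The quiescence factor Klf4 fell by 4.46 on the log2 scale and Maff by 2.48. Jun was lower at 22 h than with immunofilaments at 8 h, where it stood at 45.9, 47.7 and 45.3 CPM (-3.02, adjusted p = 0.0074). Zfp36l1, which promotes decay of mRNAs with AU-rich elements, rose by 0.58 ± 0.15, with replicate 1 above the unstimulated range and closest to it. The number of lower genes was 11 or 12 with any 1 library left out. The call of Zfp36l1 was lost in 4 of 6 of these fits, and the number of higher genes was 0 in 4 of the 6.

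Ppp1r15a, which encodes the phosphatase subunit GADD34, stood at 325, 354 and 438 CPM and at 19.0, 12.9 and 18.4 CPM (-4.47 ± 0.30, adjusted p = 2.14e-07). The chaperone gene Hspa1b had 132, 238 and 365 CPM in unstimulated cells and 0, 0 and 0.102 CPM at 22 h, where all libraries together held 2 counts. The ratio of pooled counts, unstimulated to 22 h and scaled in the same way, was 4132, with an exact counting interval of 1143 to 34130. Hspa1a, a nearly identical copy between which reads may be divided, had 21.1, 47.0 and 81.5 CPM and 0, 0 and 0.153 CPM (ratio of pooled counts 549, interval 187 to 2669). Of 16 tested heat shock genes 3 fell and 0 rose by edgeR, the third being the cochaperone Dnajb1 (-0.71 ± 0.18, lost in 3 of 6 omissions). With no filter on low counts, and also with the 2 groups fitted alone, 4 fell and 2 rose. At an unadjusted p under 0.05, 1 heat shock gene was higher, and DESeq2 gave 0 higher and 4 lower. The list's median was 0.21.

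Genes of the naive and quiescent state were lower in 10 of 35 tested cases and higher in 1, with a median of -0.65. Igfbp4 (chr11:99041244-99054392), a secreted binding protein for insulin-like growth factors that marks naive CD8+ T cells, stood at 637, 576 and 573 CPM unstimulated and at 11.4, 4.3 and 11.9 CPM at 22 h (-5.99 ± 0.55, adjusted p = 4.93e-06). Dtx1, a Notch pathway ligase, had 309, 260 and 272 CPM and 28.4, 18.6 and 16.6 CPM. Neither gene had overlapping groups, and replicate 1 was as low as the others for Igfbp4 and slightly higher for Dtx1. Treml2 fell from 148 ± 11.1 to 27.3 ± 4.05 CPM (SD, n = 3), Foxo1, the factor that holds naive T cells in quiescence, from 322 ± 14.0 to 161 ± 36.3 CPM, the gut-homing receptor Ccr9 from 267 ± 29.6 to 144 ± 15.5 CPM, and Tsc22d3, a glucocorticoid-induced repressor, from 130 ± 10.8 to 38.7 ± 10.2 CPM. The lymph node homing receptor Ccr7 fell by 0.58 ± 0.15 on the log2 scale (328, 342 and 314 CPM before, 206, 246 and 207 CPM after). Il7r, the IL-7 receptor chain, stood at 208, 156 and 146 CPM and at 252, 179 and 134 CPM, with overlapping groups. Tcf7, the factor TCF-1, had 165, 177 and 169 CPM before and 169, 83.7 and 73.3 CPM after: replicate 1 did not show the decrease of replicates 2 and 3, and the test was not passed with all libraries (adjusted p = 0.224) but was without replicate 1 (adjusted p = 0.016) and with no filter on low counts (adjusted p = 0.0495). Bach2, a repressor of effector genes, was the higher gene, with 70.0, 60.2 and 44.7 CPM and 163, 102 and 72.3 CPM (0.94 ± 0.24, adjusted p = 0.0282). The number of lower genes in the list was 5 without immunofilament replicate 3 and 15 without replicate 1, and 16 with no filter on low counts. Ccr7 lost the call in 5 of 6 omissions, Bach2 in 4 of 6 and Tsc22d3 in 1 of 6.

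Targets of IL-2 and STAT5 did not rise as a group. Of 20 tested genes 4 were lower and 1, Il2ra, was higher, with a median of -0.72. Bcl2, which protects from apoptosis, stood at 320, 241 and 280 CPM and at 152, 122 and 96.4 CPM (-1.18 ± 0.20, adjusted p = 0.00201). Gadd45g fell from 19.3 ± 0.32 to 5.36 ± 0.53 CPM (SD, n = 3), Socs3, an inhibitor of cytokine signalling, from 35.1 ± 5.3 to 16 ± 2.85 CPM, and Ccnd3, a cyclin of G1, from 30.5 ± 3.64 to 17.8 ± 2.03 CPM. Cish, a STAT5-induced inhibitor, had 4.55, 4.16 and 3.96 CPM and 3.09, 2.27 and 4.85 CPM, with overlapping groups (adjusted p = 0.842). In the wider survival list, 1 of 20 genes rose and 2 fell. Bcl2l11, which encodes the BCL2 antagonist BIM, stood at 60.5, 46.8 and 27.7 CPM and at 170, 196 and 180 CPM (2.01 ± 0.23, adjusted p = 6.92e-05), opposite to Bcl2. Pmaip1, or NOXA, had 5.87, 9.04 and 21.4 CPM and 5.0, 3.47 and 3.83 CPM, the highest stimulated value being close to the lowest unstimulated one. Ccnd3 lost the call in 5 of 6 omissions and Socs3 and Pmaip1 in 4 of 6 each, and with library size scaling 2 of the IL-2 list were lower and 2 higher.

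Of the 47 tested interferon-stimulated genes, 25 were lower and 0 higher by edgeR. The median log2 fold change was -1.53, and at an unadjusted p under 0.05 the counts were 33 lower and 1 higher. DESeq2 gave 29 lower and 0 higher. Library size scaling gave 22 lower and 1 higher. Over the omissions of 1 library the lower count was 17 to 26, lowest without unstimulated replicate 2. These genes are induced by type I and type II interferons through factor complexes that include IRF9, many of which bind the interferon-stimulated response element in promoters.

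The promoters of 4 lower genes that hold the core of this element are printed to show where it lies. They were chosen after the values were seen, as the lower genes of smallest p with a match. The core was searched as GAAA, any 2 bases and GAAA on both strands of the 250 bases before the start site, without regard to overlap with other motifs, and is in capitals. The 160 bases before the start are given 5′ to 3′ on the gene's strand, from RefSeq on GRCm38.p6, at chr4:156200819-156200978 (minus strand) for Isg15, chr19:34640729-34640888 (plus) for Ifit1, chr11:82951942-82952101 (plus) for Slfn5 and chr5:120777660-120777819 (minus) for Oas3.
Isg15: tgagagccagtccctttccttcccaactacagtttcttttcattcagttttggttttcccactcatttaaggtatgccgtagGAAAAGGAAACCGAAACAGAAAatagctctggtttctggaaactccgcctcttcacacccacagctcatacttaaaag
Ifit1: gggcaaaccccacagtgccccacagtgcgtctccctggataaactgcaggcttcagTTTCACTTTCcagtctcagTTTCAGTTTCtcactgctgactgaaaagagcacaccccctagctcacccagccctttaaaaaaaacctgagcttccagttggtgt
Slfn5: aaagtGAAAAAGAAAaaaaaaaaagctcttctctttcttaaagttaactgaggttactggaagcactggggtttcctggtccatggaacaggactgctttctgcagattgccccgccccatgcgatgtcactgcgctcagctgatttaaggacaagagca
Oas3: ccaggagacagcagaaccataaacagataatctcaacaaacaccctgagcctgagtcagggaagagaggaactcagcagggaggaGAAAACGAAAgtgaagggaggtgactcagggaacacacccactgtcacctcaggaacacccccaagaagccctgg
Isg15 holds 3 overlapping matches from 78 bases before its start, Ifit1 holds 2, and Slfn5 and Oas3 hold 1 each. The core was present in 9 of the 17 lower interferon genes with a promoter entry (52.9%), in 11 of the 17 that were not lower (64.7%) and in 265 of 8165 tested genes (3.25%). The lower and the other interferon genes thus both held it often, and a match is not a bound site.

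Isg15 (chr4:156199424-156200818), a ubiquitin-like protein, had 9.69, 24.9 and 16.8 CPM in unstimulated cells and 0.238, 0.478 and 1.02 CPM at 22 h. Replicate 1, the closest of the stimulated libraries to the others of the series in mitochondrial ribosomal RNA, was the lowest (-4.68 ± 0.56, adjusted p = 9.46e-05). Rtp4, a chaperone of receptor transport, stood at 119, 195 and 152 CPM and at 15.1, 15.9 and 16.6 CPM, with almost no spread among the stimulated libraries (-3.29 ± 0.27, adjusted p = 1.57e-06). Ifit1, which binds foreign RNA caps, fell from 123 ± 31.0 to 7.39 ± 2.08 CPM (SD, n = 3), Irf7, the factor that amplifies interferon production, from 93.5 ± 29.0 to 14.3 ± 2.33 CPM, and the nuclease gene Isg20 from 44.0 ± 4.81 to 5.03 ± 2.11 CPM. Slfn5 fell by 2.86, the antiviral GTPase gene Mx1 by 3.01, and the oligoadenylate synthase genes Oas3 by 2.67 and Oasl1 by 3.94 on the log2 scale. Replicate 1 was below every unstimulated value for these 9 genes, and each passed the test with any 1 library left out. The decrease did not extend to Gbp2, an interferon-induced GTPase, with 153, 124 and 116 CPM and 153, 231 and 174 CPM (0.51 ± 0.45, adjusted p = 0.579).

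The interferon genes were also compared with 2 other stimulated groups. Against dendritic cells at 22 h, 30 of 47 were lower and 0 higher, where 1.2% of all tested genes were lower. In this comparison 3 of 15 dendritic cell markers were lower and 1 higher, and 3 of 9 CD8+ T cell markers were higher. The dendritic cell markers summed to 489 to 658 CPM with dendritic cells and to 374 to 635 CPM with immunofilaments, and the CD8+ T cell markers to 5263 to 6615 CPM and to 6582 to 7661 CPM. Their part in the differences was not tested. Against immunofilaments at 8 h, 15 were lower and 0 higher, where 0.48% of all tested genes were lower. Isg15 stood at 11.3, 12.4 and 12.8 CPM with dendritic cells at 22 h and at 7.67, 1.99 and 10.4 CPM with immunofilaments at 8 h, all above the 22 h immunofilament libraries. Cxcl10, an interferon-induced chemokine, had 28.4, 20.6 and 67.0 CPM with immunofilaments at 8 h, 16, 85.3 and 14.3 CPM with dendritic cells at 22 h, and 1.19, 0.956 and 0.766 CPM with immunofilaments at 22 h. Its difference from unstimulated cells was not past the test (adjusted p = 0.11), except with no filter on low counts, by DESeq2 or with the 2 groups fitted alone (adjusted p = 1.88e-07, 0.0301 and 0.0244). These 3 comparisons share the 22 h immunofilament libraries, so their directions are not independent.

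**Figure D4:**
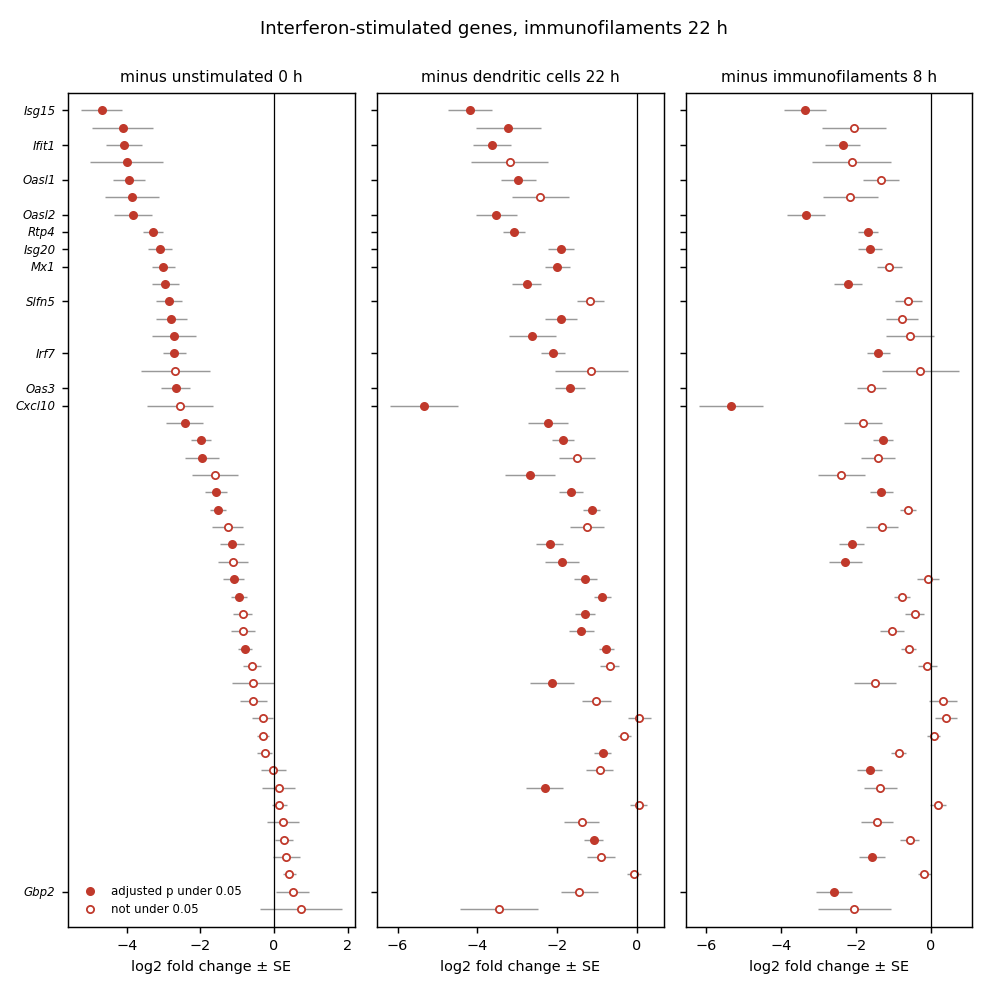
Log2 fold change ± SE of the 47 tested interferon-stimulated genes in the immunofilament libraries at 22 h, against unstimulated cells (left), dendritic cells at 22 h (middle) and immunofilaments at 8 h (right), with filled points for an adjusted p under 0.05. Genes described in the text are labelled. Most points lie left of 0 in all 3 panels, and 25, 30 and 15 are filled and below 0.

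Of 16 tested genes of MHC class I antigen presentation, 4 fell and 0 rose by edgeR, 13 fell at an unadjusted p under 0.05, 0 rose at that level, and DESeq2 gave 11 lower and 0 higher. For 15 of the 16 all immunofilament libraries were below all unstimulated ones, beside 14.7% over all tested genes, and the median log2 fold change was -0.48. The light chain gene B2m stood at 4572, 4647 and 4680 CPM and at 3238, 3741 and 3370 CPM (-0.43 ± 0.10, adjusted p = 0.0204). H2-D1, a class I heavy chain gene with close relatives, fell by 0.63 ± 0.14, and the immunoproteasome subunit genes Psmb9 and Psmb10 by 0.84 ± 0.21 and 0.74 ± 0.18. Replicate 1 was below the unstimulated range for all 4. With library size scaling 0 of the 16 passed the test, and 0 did without unstimulated replicate 2 or 3 or without immunofilament replicate 3. Psmb9 and Psmb10 lost the call in 5 of 6 omissions each, B2m in 4 of 6 and H2-D1 in 3 of 6.

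Of 38 tested DNA replication genes 5 rose and 0 fell by edgeR, while 22 were higher and 0 lower at an unadjusted p under 0.05. DESeq2 gave 5 and 0, while edgeR called 17 higher with no filter on low counts and 16 with the 2 groups fitted alone. The median log2 fold change was 0.91, and for 31 of the 38 all immunofilament libraries exceeded all unstimulated ones, beside 15.7% over all tested genes. Gins2 (chr8:120578633-120589304), a subunit of the replicative helicase, had 3.08, 5.78 and 3.49 CPM and 11.1, 17.4 and 22.1 CPM (2.04 ± 0.48, adjusted p = 0.0184). The helicase subunits Mcm4, Mcm5 and Mcm6 rose by 0.94 ± 0.24, 1.30 ± 0.35 and 1.13 ± 0.28 on the log2 scale. Replicate 1 was above the unstimulated range for these 4 and the lowest of the stimulated libraries for each. With unstimulated replicate 1 or 3 or immunofilament replicate 2 or 3 left out, 0 of the 38 passed the test. Without unstimulated replicate 2, 2 did, and without immunofilament replicate 1, 6 did. Against immunofilaments at 8 h, 9 of 38 were higher and 0 lower, where 0.637% of all tested genes were higher. Gins2 stood there at 1.61, 3.98 and 1.07 CPM, and Mcm4 at 21.8, 21.2 and 33.5 CPM against 67.0, 72.2 and 97.9 CPM at 22 h. E2f1, a factor that drives S phase genes, stood at 3.03, 0.332 and 1.88 CPM at 8 h and at 16.4, 19.96 and 26 CPM at 22 h. Its unstimulated values, 9.84, 12.7 and 10.5 CPM, lay above those at 8 h. The difference of E2f1 from unstimulated cells at 22 h was not past edgeR's test (0.93 ± 0.47, adjusted p = 0.286), except with the 2 groups fitted alone (adjusted p = 0.0442). Dtl, a substrate receptor that removes replication licensing proteins, had 27.3, 45.8 and 49.7 CPM at 22 h, 5.28, 8.31 and 10.7 CPM unstimulated and 5.0, 0.663 and 5.63 CPM at 8 h, and its call against unstimulated cells was lost in 3 of 6 omissions.

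**Figure D5:**
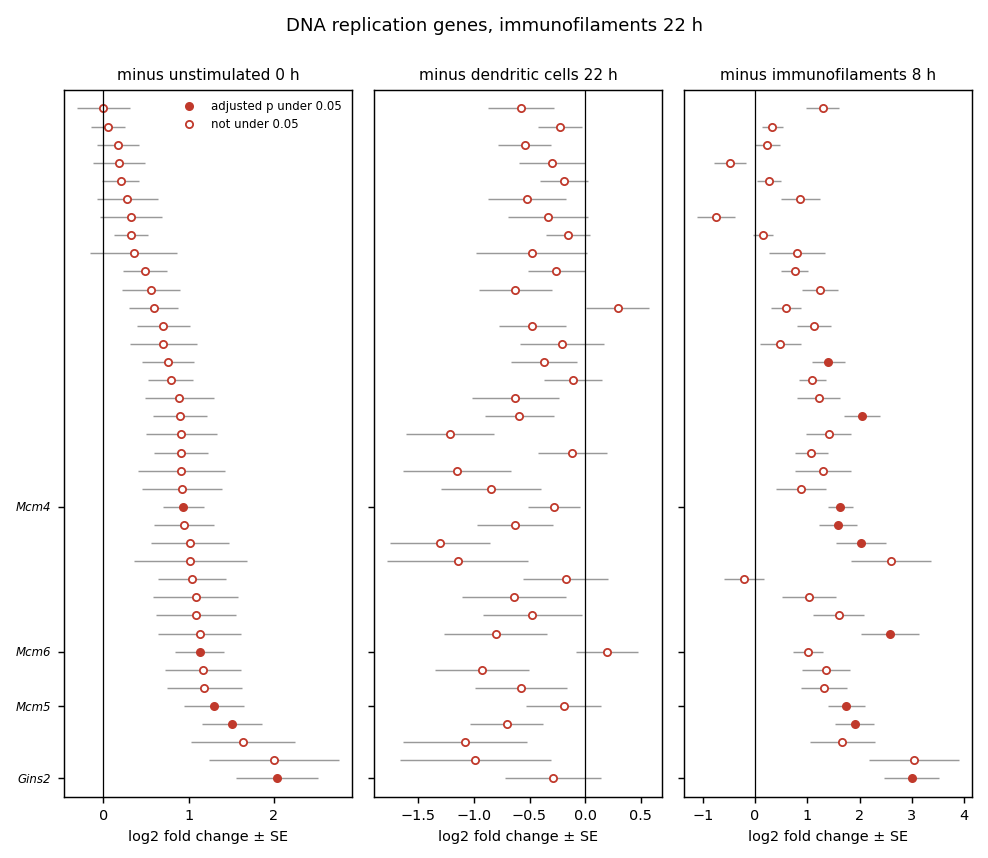
Log2 fold change ± SE of the 38 tested DNA replication genes in the immunofilament libraries at 22 h, against unstimulated cells (left), dendritic cells at 22 h (middle) and immunofilaments at 8 h (right), with filled points for an adjusted p under 0.05. Genes described in the text are labelled. Nearly all points lie right of 0 against unstimulated cells, where 5 are filled, most lie right of 0 against 8 h, where 9 are filled, and none is filled against dendritic cells.

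Few mitotic genes passed the test. Of 34 tested genes 2 fell and 0 rose by edgeR, with 2 higher and 6 lower at an unadjusted p under 0.05, and DESeq2 gave 4 lower and 0 higher. Kif23, a kinesin of cytokinesis, stood at 28.0, 36.0 and 34.0 CPM and at 11.3, 7.77 and 5.67 CPM (-1.996 ± 0.35, adjusted p = 0.00226). H2afx, the histone variant that marks DNA breaks, fell by 1.11 ± 0.26 and, unlike Kif23, lost the call in 3 of 6 omissions. Replicate 1 was below the unstimulated range for both. In the G1 list of 19 genes 2 fell and 0 rose by edgeR, Ccnd3 and the kinase inhibitor gene Cdkn2d (69.2 ± 5.86 to 31.9 ± 4.78 CPM, SD, n = 3). At an unadjusted p under 0.05 that list had 5 higher and 6 lower genes, and DESeq2 gave 1 higher and 2 lower. Cdkn2d lost the call in 6 of 6 omissions, and the list then held 0 or 1 lower and 0 to 2 higher genes. Library size scaling turned its counts to 2 higher and 0 lower.

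Biosynthetic genes gave few calls. In the sterol and fatty acid list 4 of 27 tested genes rose and 1 fell, with a median of 0.59. The cholesterol enzymes Fdft1 (32.4 ± 3.38 to 86.4 ± 27.8 CPM), Cyp51 (11.7 ± 2.39 to 45.0 ± 5.69 CPM), Hmgcs1 (20.9 ± 6.15 to 49.1 ± 7.64 CPM) and Idi1 (1.75 ± 0.33 to 7.30 ± 0.97 CPM; all SD, n = 3) were the 4. Fdft1 in replicate 1, at 55.8 CPM, lay between the unstimulated libraries and the 93.2 and 110 CPM of replicates 2 and 3. Scd2, a fatty acid desaturase, fell by 2.08 ± 0.49. DESeq2 called 9 of the list higher, library size scaling 10, and the fits without unstimulated replicate 1 or 3 or immunofilament replicate 3 called 0 of it higher. In the amino acid and ATF4 list 2 of 26 rose and 2 fell. Trib3 (chr2:152337422-152344032), a pseudokinase induced by ATF4, had 0 counts in all unstimulated libraries and 8.57, 10.3 and 6.69 CPM at 22 h, at least 15.2-fold higher against a floor of 3 counts per library. Shmt1, an enzyme of folate metabolism, rose from 6.30 ± 1.47 to 31.2 ± 11.5 CPM. The factor Atf4 itself fell from 229 ± 23.4 to 121 ± 5.36 CPM and the amino acid transporter Slc38a2 from 177 ± 21.8 to 96.8 ± 0.43 CPM. Hmgcs1 lost the call in 6 of 6 omissions, Idi1 and Shmt1 in 5 of 6, Cyp51 and Scd2 in 4 of 6, Fdft1 in 3 of 6 and Atf4 in 1 of 6. None of the 18 glycolysis genes passed edgeR's test in the fit of all libraries, with 5 higher and 1 lower at an unadjusted p under 0.05, and DESeq2 called 1 higher. With no filter on low counts 5 were higher and 0 lower, and with the 2 groups fitted alone 6 and 0. None of the 35 ribosome biogenesis genes passed it either, with 4 higher and 0 lower at an unadjusted p under 0.05 and 0 by DESeq2, while those 2 settings gave 3 and 4 higher and 1 lower each.

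Actb, beta-actin, stood at 14974, 15117 and 14088 CPM and at 9584, 6178 and 4613 CPM, with replicate 1 less reduced (-1.12 ± 0.19, adjusted p = 0.00235). Of 81 cytosolic ribosomal protein genes 23 fell and 1 rose, with a median of -0.36. Rpl5 stood at 12521, 11729 and 11313 CPM and at 6892, 8492 and 8403 CPM (-0.58 ± 0.11, adjusted p = 0.00479), and replicate 1 was the lowest. Rps7 fell by 0.68, Rpsa by 0.57, Rplp1 by 0.64 and Rps6 by 0.39 on the log2 scale. Rps6 lost the call in 5 of 6 omissions, Rplp1 in 2 of 6 and Rps7 and Rpsa in none. DESeq2 called 38 lower, and 50 were lower at an unadjusted p under 0.05. With library size scaling 7 of the 81 were lower and 1 higher. Without immunofilament replicate 3 or unstimulated replicate 2, 8 were lower. Ribosomal protein genes have many processed pseudogenes, between which the counting may divide reads.

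Adhesion and migration genes gave 4 lower and 1 higher of 24. Itgae, which encodes CD103, the integrin chain by whose absence the cells were sorted, stood at 59.3, 59.8 and 32.1 CPM and at 19.4, 12.4 and 10.2 CPM (-1.86 ± 0.43, adjusted p = 0.0174). Its mRNA was thus present in every library of cells gated as CD103-. Itgb7, its partner chain, fell by 0.96 ± 0.22, Icam1 by 0.69 ± 0.18 and Itgb2, which pairs with several leukocyte integrin chains, by 0.54 ± 0.14. Cxcr5, the follicle-homing receptor, rose from 8.03 ± 1.06 to 21.7 ± 2.45 CPM (SD, n = 3), and replicate 1 had the highest value. Itgb2 lost the call in 5 of 6 omissions, Itgae and Icam1 in 4 of 6, Itgb7 in 3 of 6 and Cxcr5 in 2 of 6, and 0 of the list were lower without unstimulated replicate 1 or immunofilament replicate 3.

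Markers of other cell types were detected. In bulk samples fewer cells of a type and less RNA per cell cannot be told apart. The 8 erythroid markers of the files summed to 27.5 to 72.4 CPM in unstimulated libraries and to 2.03 to 5.59 CPM at 22 h, and all 3 tested ones fell. Car1, a carbonic anhydrase of red cells, had 22.5, 13.6 and 31.9 CPM before and 0.119, 0 and 0.306 CPM after (-6.89 ± 0.84, adjusted p = 0.000427), Car2 fell by 2.54 ± 0.52, and Klf1, the erythroid factor, had 1 count at 22 h (ratio of pooled counts, scaled to library size, 120.2, exact counting interval 20.7 to 4832). The 19 dendritic cell markers summed to 651 to 1550 CPM before and to 374 to 635 CPM after. Of 15 tested, 3 fell, namely Xcr1, the receptor for XCL1 on cross-presenting dendritic cells, Cst3 and Ciita, and 2 rose, namely Fscn1 and Ccl22. DESeq2 gave 5 lower and 2 higher, and edgeR with no filter on low counts 7 lower and 2 higher. With the 2 groups fitted alone, 11 were tested, 3 of them lower and 0 higher. Xcr1 had 9.54, 17.2 and 45.6 CPM and 0.595, 0.12 and 2.96 CPM. Cst3, or cystatin C, fell from 221 ± 61.8 to 82.1 ± 13.2 CPM (SD, n = 3) and Ciita from 1.78 ± 0.94 to 0.09 ± 0.15 CPM. Fscn1 had 0, 0.181 and 6.75 CPM before and 5.83, 21.5 and 43.8 CPM after, so that the groups overlapped in replicate 1, and Ccl22 had 1 count before and 44 after (ratio of pooled counts 20.1, interval 3.43 to 813). Ggt1, a glutathione-degrading enzyme with 25.8, 27.1 and 27.9 CPM before and 0.952, 0.837 and 2.14 CPM after, and the DNase gene Dnase1l3, with 21.0, 11.7 and 23.7 CPM before and 0, 1.55 and 0.919 CPM after, were among the most decreased genes outside the lists. Klf1 lost the call in 6 of 6 omissions, Ccl22 in 5 of 6, Ciita in 4 of 6, Fscn1 in 3 of 6 and Car2, Xcr1 and Dnase1l3 in 2 of 6. The part of other cell types in these differences was not tested.

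Among natural killer markers 1 of 5 tested genes rose, Klrk1, the NKG2D receptor that CD8+ T cells also carry. It stood at 31.9, 28.0 and 29.1 CPM and at 69.6, 77.6 and 75.4 CPM (1.32 ± 0.22, adjusted p = 0.00156). Epcam, listed with stromal and epithelial markers, had 0.53 ± 0.06 CPM before and 5.16 ± 1.46 CPM after (SD, n = 3), a call that was lost in 6 of 6 omissions. Of 6 B cell markers, 4 myeloid markers and 3 markers of CD4+ and regulatory T cells, 0 passed edgeR's test. At an unadjusted p under 0.05, 2 B cell and 1 myeloid marker were higher and 1 CD4+ or regulatory marker lower, and DESeq2 called 1 myeloid marker higher and none of the others. With no filter on low counts edgeR called 1 B cell and 1 myeloid marker higher. Their summed levels were 20.7 to 25.3 CPM before and 23.8 to 45.8 CPM after for B cells, 53.3 to 62.4 and 83.3 to 103.3 CPM for myeloid cells, and 3.26 to 10.8 and 8.37 to 10.3 CPM for CD4+ and regulatory cells.

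Against dendritic cells at the same time, a group that received antigen on cells in place of filaments with IL-2, 263 genes differed (2.43%), 133 higher and 130 lower with immunofilaments. The omission of 1 library moved this to 90 to 759 genes: 759 without immunofilament replicate 1, 99 without replicate 2, 90 without replicate 3 and 119 without dendritic cell replicate 1. Pou2af1 stood at 4.78, 1.77 and 9.23 CPM with dendritic cells, below the 45.9, 83.7 and 83.4 CPM with immunofilaments (3.73, adjusted p = 0.00085). Spry1 (0.683, 1.22 and 2.48 CPM), Chst2, a sulfotransferase of carbohydrate ligands (0.91, 1.99 and 0.598 CPM), and Myb (21.7, 13.5 and 11.6 CPM) were low with dendritic cells, against 11.9 ± 2.25 CPM for Chst2 with immunofilaments (SD, n = 3). Cd28 had 129, 87.3 and 89.9 CPM with dendritic cells, below the unstimulated 197, 148 and 211 CPM. Lower with immunofilaments were Cish, with 29.4, 81.5 and 27.8 CPM in the dendritic cell libraries (-3.71, adjusted p = 0.00097), Socs3, with 104, 62.3 and 143 CPM (-2.69, adjusted p = 0.00013), and Gzmb, with 110, 591 and 187 CPM (-2.96, adjusted p = 0.008). Of the IL-2 and STAT5 list, 8 of 20 genes were lower with immunofilaments than with dendritic cells and 0 higher, beside the 3 of 15 dendritic cell markers that were lower and the 3 of 9 CD8+ T cell markers that were higher. Syt6, a synaptotagmin, had 0, 0.956 and 0.306 CPM with immunofilaments and 5.58, 4.65 and 17.9 CPM with dendritic cells.

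Against immunofilaments at 8 h, which follows the response in time, 121 genes differed (1.12%), 69 higher and 52 lower at 22 h. Without 1 library the number was between 24 (without 22 h replicate 3) and 541 (without 22 h replicate 1), with 26 without 22 h replicate 2 and 52, 75 and 25 without 8 h replicate 1, 2 or 3. Besides Nrgn and the replication genes, Nrp2, a coreceptor for semaphorins, had 1.78, 0.332 and 0 CPM at 8 h and 9.76, 12.3 and 5.41 CPM at 22 h. Its 22 h level did not differ from unstimulated cells past the test (5.58, 6.14 and 4.89 CPM, adjusted p = 0.601). Lad1, an anchoring filament protein, had 149, 78.2 and 125 CPM at 8 h and 11.9, 18.0 and 24.7 CPM at 22 h (-2.68, adjusted p = 0.0047), which was still above the unstimulated 5.87, 4.7 and 7.91 CPM. Oasl2 had 27.5, 10.3 and 33.8 CPM at 8 h and 1.67, 3.11 and 2.35 CPM at 22 h. The differences between 8 h and 22 h were -0.18 for Tnfrsf9 (adjusted p = 0.91) and -0.01 for Ccl4 (adjusted p = 1), which does not show that their levels were alike. The increase of Lad1 over unstimulated cells lost the call in 5 of 6 omissions.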

How the data were processed

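RNA counts per gene were used as the authors deposited them, 17493 genes in each of 15 libraries. Per the labels' protocols the libraries were made with an adapted CEL-seq protocol, and BWA and the genome mm10 are named in the submitters' processing notes. The counting step, its use of strand and of molecular identifiers are not given in the sources used here. Exons of 48 of 144 genes examined by name overlap another gene in GENCODE M21, 39 of them on the opposite strand.

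All 15 libraries entered 1 edgeR fit (version 4.0.16, R 4.3.3) with 5 group means, after filterByExpr (minimum count 10, total 15) and TMM scaling. Comparisons used the quasi-likelihood test with Benjamini-Hochberg adjustment over the 10831 genes tested and a threshold of 0.05. SE is the log2 fold change divided by the root of F. The fit was also run on simulated counts with known changes, and the outcome is not reported here. CPM use TMM-adjusted library sizes. Alternatives were DESeq2 1.42.0, other scalings and filters, and libraries left out.

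Genes were named by rule: the 12 highest and 12 lowest fold changes among called genes with mean counts of at least 50 in the higher group, over 3 counts in a library of the lower group and no overlap (5 each for the other comparisons), the 6 largest changes in CPM each way, the 6 smallest p in each list, and 16 fixed genes. The genes Cd27, Il21r, Traf1, Rgs1, Bach2, Ifit1, Slfn5, Oas3 and Malat1 fall outside it and were chosen after their values were seen. Some genes that the rule names are not reported here. The members, lists and rule were chosen with earlier results of these data known. Promoter sequences are from RefSeq.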

Additional observations from a re-analysis of the deposited data

Results flagged for a closer look

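The difference from unstimulated cells was not the same at 8 h and 22 h for 29 of the named genes, by edgeR's test of 22 h against 8 h. The 2 contrasts share the unstimulated libraries, so this test compares the immunofilament libraries alone. Among interferon-stimulated genes the log2 difference, 22 h minus 8 h, was -5.35 for Cxcl10, -3.36 for Isg15, -3.33 for Oasl2, -2.59 for Gbp2, -2.36 for Ifit1, -1.69 for Rtp4, -1.64 for Isg20 and -1.4 for Irf7. Jun, 1 of 23 immediate early genes and the one to pass this test, had -3.02, and of 30 feedback genes 2 were lower, Tnfaip3 (-1.1) and Nfkbia (-0.886). Also lower were Ppp1r15a (-1.53), Lad1 (-2.68), H2afx (-1.16) and B2m (-0.448).

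The genes higher at 22 h than at 8 h included those of DNA replication and its control, with 3.43 for E2f1, 3.37 for Dtl, 2.99 for Gins2, 1.75 for Mcm5 and 1.64 for Mcm4. E2f1 at 22 h did not pass edgeR's test against unstimulated cells in the fit of all libraries (adjusted p = 0.286). Nrgn was higher than at 8 h by 4.71, Nrp2 by 3.47 and Fscn1 by 5.59. Smaller values were those of Serpinb6b (1.58), Dtx1 (1.56), Cxcr5 (1.47), Itgb7 (0.992), Klrk1 (0.987) and Thy1 (0.636). Dtx1, Itgb7 and Thy1 were lower than in unstimulated cells at 8 h and at 22 h by their group means, so that 22 h lay between 0 h and 8 h.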

How the results depend on the processing

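In the comparison with unstimulated cells, 658 genes became 1101 with no filter on low counts, 1066 with DESeq2's Wald test, 993 with only the 6 libraries compared in the fit, 251 at an adjusted p of 0.01, and 99 with immunofilament replicates 2 and 3 left out. Leaving out 1 library gave 283 to 947. Against dendritic cells at 22 h, 263 genes became 706, 563, 70, 89 and 8 under the same changes, and 90 to 759 with 1 library left out. Against immunofilaments at 8 h, 121 became 502 with no filter, 366 with DESeq2, 26 at 0.01 and 0 without replicates 2 and 3, where 1 immunofilament library remained, and 24 to 541 with 1 library left out. The replicate block gave 638, 245 and 105 genes. Deviations from the group mean correlated little between same-numbered unstimulated and immunofilament samples (correlations 0.00565, 0.00986 and 0.0491). This does not show whether such samples share a donor, as replicates 2 and 3 also differ from replicate 1 in the immunofilament group. Over 144 named genes and all alternatives, 1761 values kept direction and side of the threshold (among them Syt6, at 0 with replicate 1 as the only immunofilament library), 348 lost the call, 14 gained it and 5 reversed. The reversals, none of a called gene, were Myc (-0.123), mt-Rnr1 (0.279) and mt-Rnr2 (0.0184) with replicate 1 as the only immunofilament library, Prf1 (-0.296, range of omissions to 0.433), and Il7r (-0.117, to 0.343) with 1 library left out. The cause of these changes was not tested, beyond the smaller number of samples in the omissions. Depth differed between the groups, and genes with few counts at 0 h carry wide intervals.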
